A study of Rattus norvegicus with 8 samples.

Results

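RT1-Da and Cd74 are 2 of the 32623 Ensembl genes in the deposited count table of rat dorsal root ganglia (DRG), the clusters of sensory neuron cell bodies beside the spinal cord. They were chosen by identifier, ENSRNOG00000032844 for RT1-Da and ENSRNOG00000018735 for Cd74, by a rule that uses no measured value, though with earlier results of these data known. Both passed the filter on low counts, with 16988 genes tested in all. The table covers 8 libraries, 2 for each of 4 groups, naïve or CCI rats of either sex. All rats were adult, gonadally intact Sprague-Dawley animals, and each library was made from the pooled ipsilateral L4-L6 DRGs of 1 rat. In chronic constriction injury (CCI) the sciatic nerve is loosely tied with silk ligatures, and these DRGs were taken on day 14 from rats whose paw withdrawal threshold had fallen. Naïve rats had no operation, so the groups differ by anaesthesia and incision as well as by the nerve injury. The females' stage of the estrous cycle was not determined, per the study's methods.

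MHC class II molecules are pairs of an alpha and a beta chain that carry peptides of ingested proteins to the cell surface, where CD4+ T cells read them. In rats the class II genes lie in the RT1 complex. RT1-Da encodes the alpha chain of the RT1-D molecule, the counterpart of human HLA-DR, and RT1-Db1 encodes its beta chain. Cd74 encodes the invariant chain, which folds with new class II molecules, keeps their peptide groove closed and guides them to the endosomes. There proteases degrade it, and peptides then take its place. Macrophages, dendritic cells and B cells hold most class II protein in the body, and the DRG has resident macrophages around its neurons. Their class II and invariant chain genes are switched on together by the coactivator CIITA, which acts through factors bound to conserved promoter elements, the X and Y boxes.

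The promoters of the measured class II genes are shown because these elements are what the alpha, beta and invariant chain genes have in common. The sequences are from RefSeq on the assembly GRCr8, which is a later build than the rn6 genome of the counts, and each is printed 5′ to 3′ on its gene's strand. Capitals mark an X box core, which is AGNAAC followed after any 3 bases by TG, and a Y box core, ATTGG, which in Cd74 stands as its reverse complement CCAAT.
RT1-Da (chr20:4515317-4515385, plus strand, 98 to 30 bases before the start): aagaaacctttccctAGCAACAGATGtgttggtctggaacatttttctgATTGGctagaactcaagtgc
RT1-Db1 (chr20:4560223-4560290, minus strand, 128 to 61 bases before the start): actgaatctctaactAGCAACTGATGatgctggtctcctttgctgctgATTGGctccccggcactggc
RT1-Db2 (chr20:4541693-4541759, minus strand, 164 to 98 bases before the start): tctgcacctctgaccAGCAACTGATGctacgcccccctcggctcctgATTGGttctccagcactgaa
Cd74 (chr18:56526974-56527036, plus strand, 232 to 170 bases before the start): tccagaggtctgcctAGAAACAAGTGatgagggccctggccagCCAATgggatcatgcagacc
The cores were 23 bases apart in RT1-Da, 22 in RT1-Db1, 21 in RT1-Db2 and 17 in Cd74. The letters of both motifs were chosen with these sequences in view, and both strands were searched in windows from 250 bases before to 50 after each start. Of 33469 RefSeq promoters, 4.37% held the X core, 37.5% the Y core and 0.161% an X core with a Y core following within 40 bases. Of the 10 class II and invariant chain genes with a RefSeq promoter, 5 held both in that order, namely RT1-Da, RT1-Db1, RT1-Db2, RT1-DOb and Cd74. The other 5 were RT1-Ba, RT1-Bb, RT1-DMa, RT1-DOa and RT1-Ha, which held a Y core and no X core of these letters. None of the 17 class I antigen presentation genes with a promoter entry held the X core, and 76.5% held the Y core. A match of letters is a description of the sequence and not a measured binding site.

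Total counts ranged from 39489103 to 60818457 per library. Expression is given as CPM on library sizes adjusted by TMM over the 8 libraries, with the mean ± SD over n = 2 rats. Each comparison used edgeR's quasi-likelihood test on the 4 libraries concerned. A gene was called at a Benjamini-Hochberg adjusted p under 0.05 with an absolute log2FC above 0.5. For a single gene an exact permutation test of 2 rats against 2 cannot give a two-sided p under 0.333, so each adjusted p rests on information about spread shared across genes. Sequencing took place in 2 batches that the sources used here do not assign to libraries. Whether batch and group coincide is therefore not known, and batch could not be adjusted for. Symbols were available for 1961 identifiers, largely from lists that the study drew up on these same libraries, so counts among named genes are not independent evidence of direction. Of 13 sensory neuron markers, 6 had an identifier and all 6 were detected in every library. In whole-ganglion RNA, fewer cells of a type and less RNA per cell cannot be told apart.

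RT1-Da, the alpha chain gene, was lowest in naïve males and highest in CCI females. In naïve males it measured 46.3 and 51.9 CPM, from 2421 and 2829 counts. Males with CCI had 68.6 and 79.1 CPM. Among females the naïve rats had 83.0 and 78.9 CPM and the injured ones 137 and 90.3 CPM. Females lay above males within each condition, and CCI rats above naïve rats within each sex. In males the mean was 49.1 ± 3.96 CPM without injury and 73.8 ± 7.41 CPM with it. In females it was 81.0 ± 2.90 CPM without and 114 ± 33.0 CPM with injury, the highest of the 4 groups. Of neighbours in the order of means, injured males and uninjured females overlapped, with 79.1 CPM in the upper CCI male and 78.9 CPM in the lower naïve female. Counting error alone was 1.37% to 2.03% of the value. The SD between rats was larger than that in each group, least so in naïve females.

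Cd74, the invariant chain gene, took the same order of group means. Naïve males measured 133 and 160.0 CPM, from 6981 and 8722 counts, and CCI males 187 and 172 CPM. Naïve females were close to each other at 228.1 and 227.7 CPM. CCI females had 340.0 and 233 CPM. Every female library stood above every male library. How many of all genes separate the sexes in this way was not counted, here or for the genes below. Male means were 147 ± 18.7 CPM before and 179.9 ± 10.5 CPM after CCI, and female means 228 ± 0.296 and 287 ± 75.3 CPM. Counting error was 0.87% to 1.20% of the value. The SD of the naïve females was below that error, so it cannot measure the spread between rats.

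RT1-Db1 (ENSRNOG00000033215), the beta chain that pairs with RT1-Da, showed the same separation by sex. Males had 36.1 and 37.7 CPM when naïve and 46.7 and 44.3 CPM with CCI. Females had 65.4 and 59.3 CPM when naïve and 87.9 and 67.7 CPM after CCI. As for Cd74, the 4 female libraries lay above the 4 male ones. RT1-Db2 (ENSRNOG00000030431), a further beta chain gene, was near 1 CPM, from 0.55 in both naïve males to 1.79 in the second CCI female. Its counts were 29 to 70 per library, which is a counting error of up to 18.6%, and its male and female values overlapped. RT1 genes are close relatives in sequence, so reads of one may be counted on another or lost as ambiguous, and the division between RT1-Db1 and RT1-Db2 is uncertain. The other 7 class II genes listed for the pathway (RT1-Ba, RT1-Bb, RT1-DMa, RT1-DMb, RT1-DOa, RT1-DOb and RT1-Ha) had no identifier in the sources of symbols and were not analysed here.

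**Figure D1:**
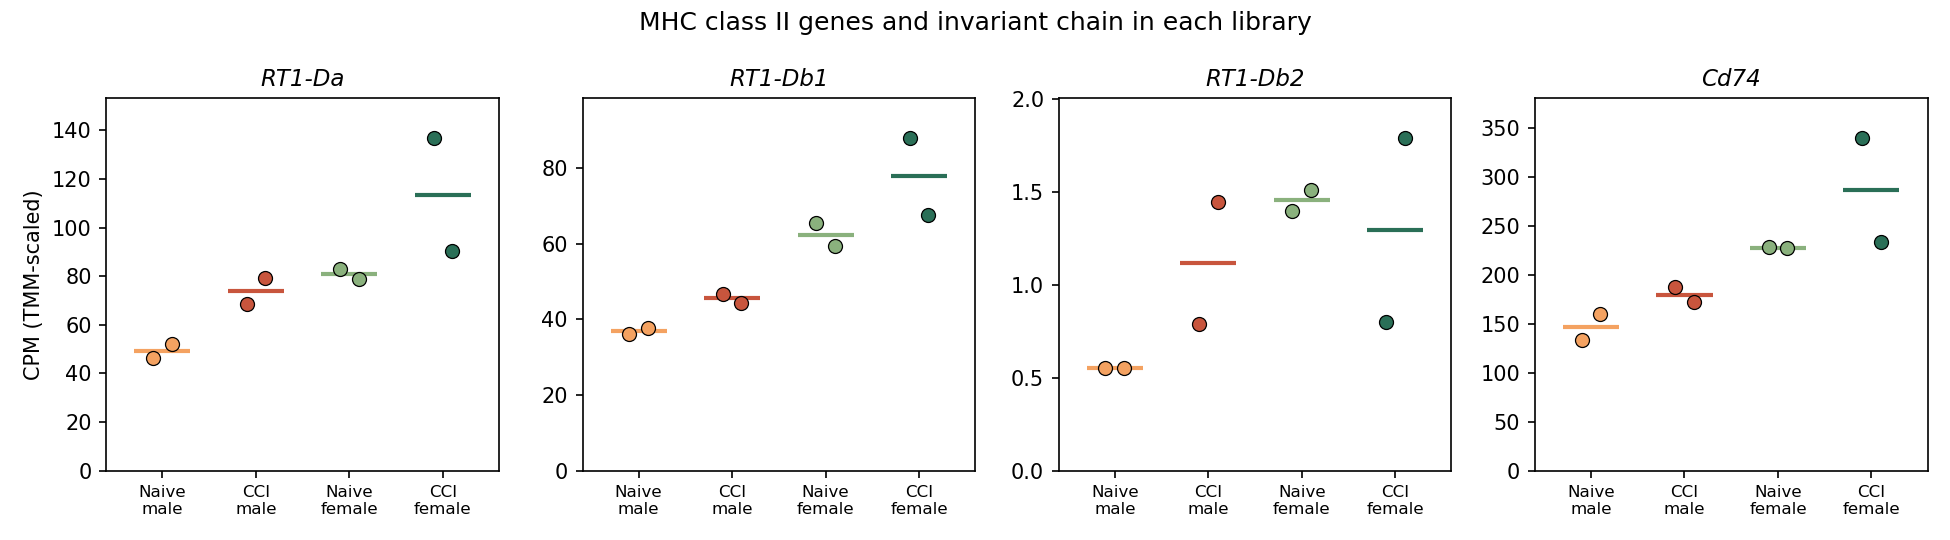
Each panel plots 1 gene (RT1-Da, Cd74, RT1-Db1 and RT1-Db2), with CPM on the vertical axis and the 4 groups on the horizontal axis. Points are single libraries and bars the mean of 2 rats. For Cd74 and RT1-Db1 the 4 female libraries lie above the 4 male ones, and the first CCI female is the highest library for RT1-Da (137 CPM), Cd74 (340.0 CPM) and RT1-Db1 (87.9 CPM).

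Sex without injury was addressed by comparing naïve females with naïve males. RT1-Da was 1.65-fold higher in females, with a log2FC of 0.73 (SE 0.0875, 95% interval 0.50 to 0.95), and Cd74 was 1.56-fold higher with a log2FC of 0.64 (SE 0.107, 0.36 to 0.91). Neither was called, since edgeR's adjusted p was 0.0954 for both genes. The unadjusted p-values of the same edgeR fit were 0.000382 and 0.00178. RT1-Db1 had a log2FC of 0.76 and the same adjusted p of 0.0954 by edgeR. Only 12 of all genes tested, 0.0706%, were called in this comparison, and 25.6% had an unadjusted p under 0.05. DESeq2 was run on the 23944 genes with any count and called 1014. RT1-Da and Cd74 were both among them, with DESeq2 adjusted p-values of 9.03e-08 and 1.62e-05. Over the 10 alternatives run, the log2FC of RT1-Da stayed between 0.64 and 0.81 with adjusted p-values from 9.03e-08 to 0.294, and that of Cd74 between 0.51 and 0.78 with adjusted p-values from 1.62e-05 to 0.294. The female and male libraries did not overlap for either gene, which held in that direction for 29.5% of all genes tested. The median log2FC of all genes was -0.0058 and that of the 4 class II genes with an identifier 0.74, a set that is not independent of these libraries because the symbols came largely from the study's lists.

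After injury the same contrast was made between CCI females and CCI males. RT1-Da was 1.54-fold higher in females with a log2FC of 0.63 (SE 0.195, 95% interval 0.15 to 1.10), and Cd74 was higher with a log2FC of 0.68 (SE 0.172, 0.26 to 1.10). Neither was called, with edgeR's adjusted p at 0.182 and 0.130, while 1.06% of all genes tested were called. Both had an unadjusted p under 0.05, as had 18.3% of all genes, and DESeq2 called neither. The groups did not overlap for either gene, nor did they, in that direction, for 24.7% of all genes. The first CCI female weighs on these values. Without it the log2FC of RT1-Da was 0.30 and that of Cd74 was 0.38. RT1-Db1 had a log2FC of 0.78 with edgeR's adjusted p at 0.0571, and it fell below 0.05 under 6 of 10 alternatives, whose adjusted p-values ranged from 8.75e-07 to 0.234.

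Averaged over both conditions with all 8 libraries, the sex difference was 0.67 on the log2 scale for RT1-Da (SE 0.124, 95% interval 0.39 to 0.95) and 0.65 for Cd74 (SE 0.116, 0.39 to 0.92). Neither passed the threshold, by a small margin, since edgeR's adjusted p was 0.0573 for RT1-Da and 0.0546 for Cd74. RT1-Db1 was upregulated in females with a log2FC of 0.77 (SE 0.0861, 0.57 to 0.96) and an edgeR adjusted p of 0.0106. In this comparison 0.436% of all genes tested were called in either direction, and 0.218% of all genes tested were called higher in females. Both RT1-Da and Cd74 had an unadjusted p under 0.05, as had 18.4% of all genes. DESeq2 called 462 of the 23944 genes with any count. RT1-Da and Cd74 were both among them, with DESeq2 adjusted p-values of 3.68e-05 and 1.13e-05. Over 13 alternatives the adjusted p ranged from 3.68e-05 to 0.141 for RT1-Da and from 1.13e-05 to 0.145 for Cd74, and the log2FC of both genes remained between 0.53 and 0.79. The call of RT1-Db1 was lost without the first CCI male (adjusted p = 0.0521 by edgeR) and without the second (0.0607). An exact two-sided permutation test that exchanged the sexes within each condition gave p = 0.0556 for each of RT1-Da and Cd74, the smallest p that its 36 arrangements allow.

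Injury in males was the comparison in which RT1-Da passed the test. RT1-Da was upregulated 1.51-fold in CCI males over naïve males, with a log2FC of 0.59 (SE 0.109, 95% interval 0.31 to 0.87) and an edgeR adjusted p of 0.0149. Cd74 had a log2FC of 0.30 (SE 0.112, 0.01 to 0.59) and was not called (edgeR adjusted p = 0.0958). DESeq2 gave Cd74 an adjusted p of 0.0216, but no call, as its log2FC was below the size required. CCI in males moved many genes, with 21.6% of all tested called and 9.05% called higher, so 1 of the 2 genes called is read against that background. RT1-Da's log2FC lay above that of 90.5% of genes and Cd74's above that of 75.3%. CCI and naïve males did not overlap for either gene, nor, in that direction, for 36.3% of all genes. The call of RT1-Da was lost when the first naïve male was left out (log2FC 0.51, adjusted p 0.0710 by edgeR), the first CCI male (0.70, 0.0509) or the second CCI male (0.48, 0.0687). Over the 10 alternatives its adjusted p ranged from 4.65e-06 to 0.0710. Without the first CCI male no gene at all was called by edgeR in this comparison. RT1-Db1 had an adjusted p of 0.0264 by edgeR at a log2FC of 0.31, below the size required for a call.

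In females, CCI moved RT1-Da by a log2FC of 0.48 (SE 0.173, 95% interval 0.08 to 0.88) and Cd74 by 0.32 (SE 0.160, -0.05 to 0.69). Neither was called by edgeR (adjusted p = 0.118 and 0.227), where 5.69% of all genes were called and 3.69% called higher. At an unadjusted p under 0.05, 1 of the 2 passed, which was RT1-Da, against 28.7% of all genes. DESeq2 called neither. Its adjusted p for RT1-Da was 0.029, but the log2FC was below the size required for a call. CCI females lay above naïve females for both genes, as they did for 30.5% of all genes. The difference rests on the first CCI female. Without it the log2FC was 0.16 for RT1-Da and 0.03 for Cd74, and over all 10 alternatives it ran from 0.16 to 0.76 and from 0.03 to 0.58. RT1-Da was called without the first naïve female (log2FC 0.51, adjusted p 0.0256 by edgeR, within a range of 0.0256 to 0.461 over its alternatives).

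Whether the response to CCI differed between the sexes was tested as an interaction over all 8 libraries. The difference of the log2FC, females minus males, was -0.10 for RT1-Da (SE 0.251, 95% interval -0.68 to 0.48) and 0.04 for Cd74 (SE 0.235, -0.51 to 0.58). EdgeR's adjusted p was 0.839 and 0.938, and neither gene was called by DESeq2. EdgeR called 1.59% of all genes. Neither gene had an unadjusted p under 0.05, against 24% of all genes. The call of RT1-Da in males and its absence in females is thus not shown to be a difference between the sexes, and the intervals still hold differences as large as -0.68 for RT1-Da and 0.58 for Cd74. Exchanging CCI and naïve rats within each sex, the exact two-sided permutation p was 0.0556 for both genes, again the smallest possible, with mean differences in log2 CPM of 0.52 for RT1-Da and 0.30 for Cd74.

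**Figure D2:**
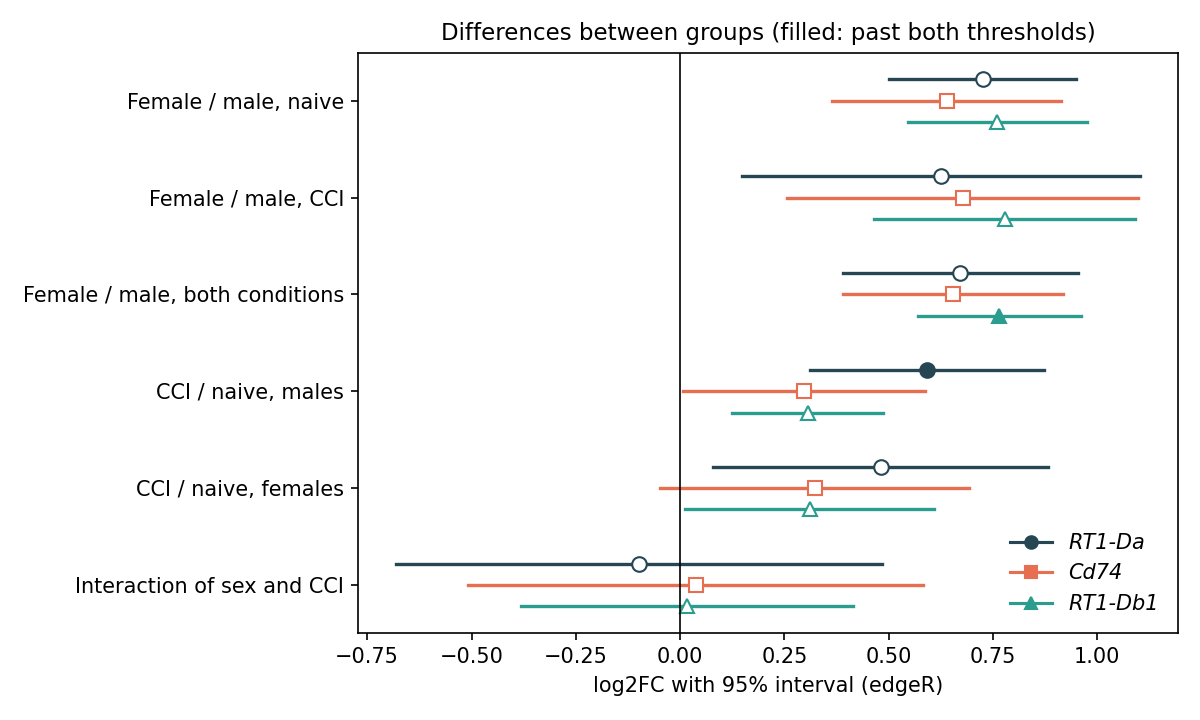
The log2FC (horizontal axis) of RT1-Da, Cd74 and RT1-Db1 is plotted for 6 comparisons (vertical axis), with bars for the 95% interval from edgeR. Filled symbols passed both thresholds, which RT1-Da did for CCI in males (0.59) and RT1-Db1 for sex over both conditions (0.77), and the intervals of the interaction span 0 for all 3 genes.

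The alpha chain and invariant chain genes moved together across libraries, but not in a fixed proportion. The ratio of Cd74 to RT1-Da counts, which needs no scaling of the libraries, was 2.88 and 3.08 in males without injury and 2.73 and 2.18 in males with CCI. In females it was 2.75 and 2.89 without injury and 2.48 and 2.59 with CCI. Every CCI library lay below every naïve library, but the nearest pair differed by less than counting error. This pair was the first CCI male (2.73) and the first naïve female (2.75). The lowest ratio was that of the second CCI male. The ratio of RT1-Db1 to RT1-Da, the beta to the alpha chain gene, was 0.779 and 0.727 in males without injury and 0.680 and 0.561 with it. The female values were 0.788 and 0.752 without and 0.642 and 0.749 with injury. The naïve and CCI values came close in females (0.752 against 0.749) and stood apart in males. These ratios compare libraries and not the levels of the genes, whose lengths differ.

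**Figure D3:**
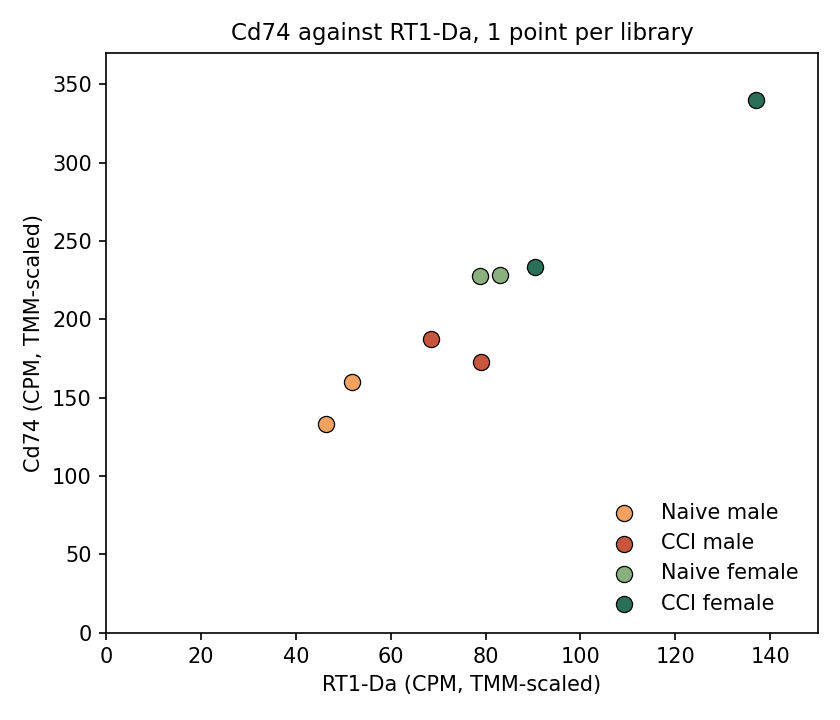
Cd74 (vertical axis, CPM) is plotted against RT1-Da (horizontal axis, CPM) with 1 point for each of the 8 libraries, coloured by group. The points run from the first naïve male (46.3 and 133 CPM) to the first CCI female (137 and 340.0 CPM), which stands apart from the rest.

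The first CCI female stood above the second by 0.60 on the log2 scale for RT1-Da, a larger difference between the 2 rats than that of 90.6% of genes. For Cd74 the same pair differed by 0.54 and for RT1-Db1 by 0.38, while RT1-Db2 went the other way by -1.12. In the other groups the 2 rats differed by at most 0.21 in size for RT1-Da and 0.26 for Cd74. Cd163, the scavenger receptor of macrophages, did not set this library apart, at 5.71 CPM in the first and 5.96 CPM in the second CCI female.

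Genes were ranked by Pearson's r of log2 CPM with each of the 2 genes over the 8 libraries, among the 13082 tested genes whose log2 CPM averaged 1 or more. These r describe libraries that share groups and scaling. For RT1-Da, Cd74 ranked 2 with r = 0.952, and RT1-Db1 ranked 6 with r = 0.939. The tenth was Cd7 (ENSRNOG00000036674), a surface protein of T cells and natural killer cells, with r = 0.930 and CPM from 3.04 in the first naïve male to 6.46 in the first CCI female. The first, ENSRNOG00000003491, had r = 0.960 and no symbol in the sources used here, as had 7 of these 10 genes. For Cd74 the gene most alike was RT1-Db1 with r = 0.977, and RT1-Da ranked 3. Without the first CCI female, r of RT1-Da with Cd74 was 0.90 and r of Cd74 with RT1-Db1 was 0.968. Over all 8 libraries 23 genes had an r above 0.9 with RT1-Da and 24 with Cd74.

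Of the 8 genes listed for class II transcription, Rfx5 (ENSRNOG00000021012) had an identifier. It encodes a subunit of the RFX complex that binds the X box, the first of the capitalised elements in the promoters above. Rfx5 went from 37.9 and 32.9 CPM in naïve to 21.7 and 23.4 CPM in injured males. Female libraries had 24.6 and 24.3 CPM when naïve and 23.6 and 19.2 CPM after injury. The naïve males stood above all other libraries, the reverse of RT1-Da, which was lowest there. The share of all genes that were highest in the naïve males was not counted. Whether Rfx5 has a part in the RT1-Da values was not tested. Rfx5 fell by 0.64 on the log2 scale in CCI males (edgeR adjusted p = 0.0082), where 12.5% of all genes were called lower, and its log2FC in naïve females against naïve males was -0.53 (edgeR adjusted p = 0.0954). Its call in CCI males was lost without the first CCI male (adjusted p = 0.0581 by edgeR). Of the 8 genes listed for class II processing and turnover, Ctsb (ENSRNOG00000010331) had an identifier, which encodes the lysosomal protease cathepsin B. Ctsb measured 1287 and 1346 CPM in males before injury and 2344 and 2648 CPM after it. In females the values were 1648 and 1674 CPM before and 2135 and 2396 CPM after. It rose by a log2FC of 0.93 in CCI males (edgeR adjusted p = 0.00569), a call that was lost without the first CCI male (0.0502). In CCI females its log2FC was 0.44 (edgeR adjusted p = 0.0304), under the size required.

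The class I pathway, which shows peptides of a cell's own proteins to CD8+ T cells, was measured through few genes. Of 20 listed genes 4 had an identifier, and 2 of these were downregulated in CCI males, against 12.5% of all genes. RT1-A2 (ENSRNOG00000030712), a class I heavy chain gene, measured 41.4 and 30.2 CPM in males when naïve and 23.7 and 20.5 CPM after CCI. The females measured 66.3 and 62.5 CPM when naïve and 45.7 and 60.9 CPM after CCI. Every female library stood above every male one, a separation whose share among all genes was not counted. CCI libraries lay below naïve ones in each sex. RT1-A2 fell by 0.69 on the log2 scale in CCI males (edgeR adjusted p = 0.0282). It was higher in CCI females than in CCI males with a log2FC of 1.28 (edgeR adjusted p = 0.0273), where 0.524% of all genes were called higher, and over both conditions with 1.06 (0.0262). RT1-N2 (ENSRNOG00000029386), a nonclassical class I gene, measured 4.82 and 3.26 CPM in naïve males and 0.358 to 1.46 CPM in the other 6 libraries. It fell by 2.64 on the log2 scale in CCI males (edgeR adjusted p = 0.0064). Tap1, the peptide transporter, stayed between 14.7 and 20.2 CPM and Erap1, which trims peptides for class I, between 54.4 and 76.4 CPM, and neither was called in any comparison. The calls of RT1-A2 were lost when single libraries were left out, in CCI males without the first naïve male or either CCI male and between CCI groups without either CCI female. Over both conditions the RT1-A2 call was lost on leaving out any 1 library other than the first naïve male or the second CCI female, and its adjusted p by edgeR or DESeq2 was under 0.05 in 7 of 13 alternatives, with a maximum of 0.106.

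Interferon gamma is the main inducer of class II genes in cells that do not carry them by default. Of 15 genes listed for its response 2 had an identifier, Cxcl9 and Gbp2. Cxcl9 (ENSRNOG00000022242), a chemokine for activated T cells, measured from 3.50 to 4.86 CPM in the naïve rats and CCI males, and 9.95 and 7.14 CPM in CCI females. It was upregulated in CCI females over naïve females with a log2FC of 1.18 (edgeR adjusted p = 0.0144), against 3.69% of all genes, and the call was lost without either CCI female. The first CCI female, highest for RT1-Da and Cd74, was also the highest for Cxcl9. Gbp2, an interferon-induced GTPase, ranged from 29.8 to 58.8 CPM and was not called in any comparison. None of the 6 listed Cd74 ligands and partners and none of the 6 T cell costimulation genes had an identifier.

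**Figure D4:**
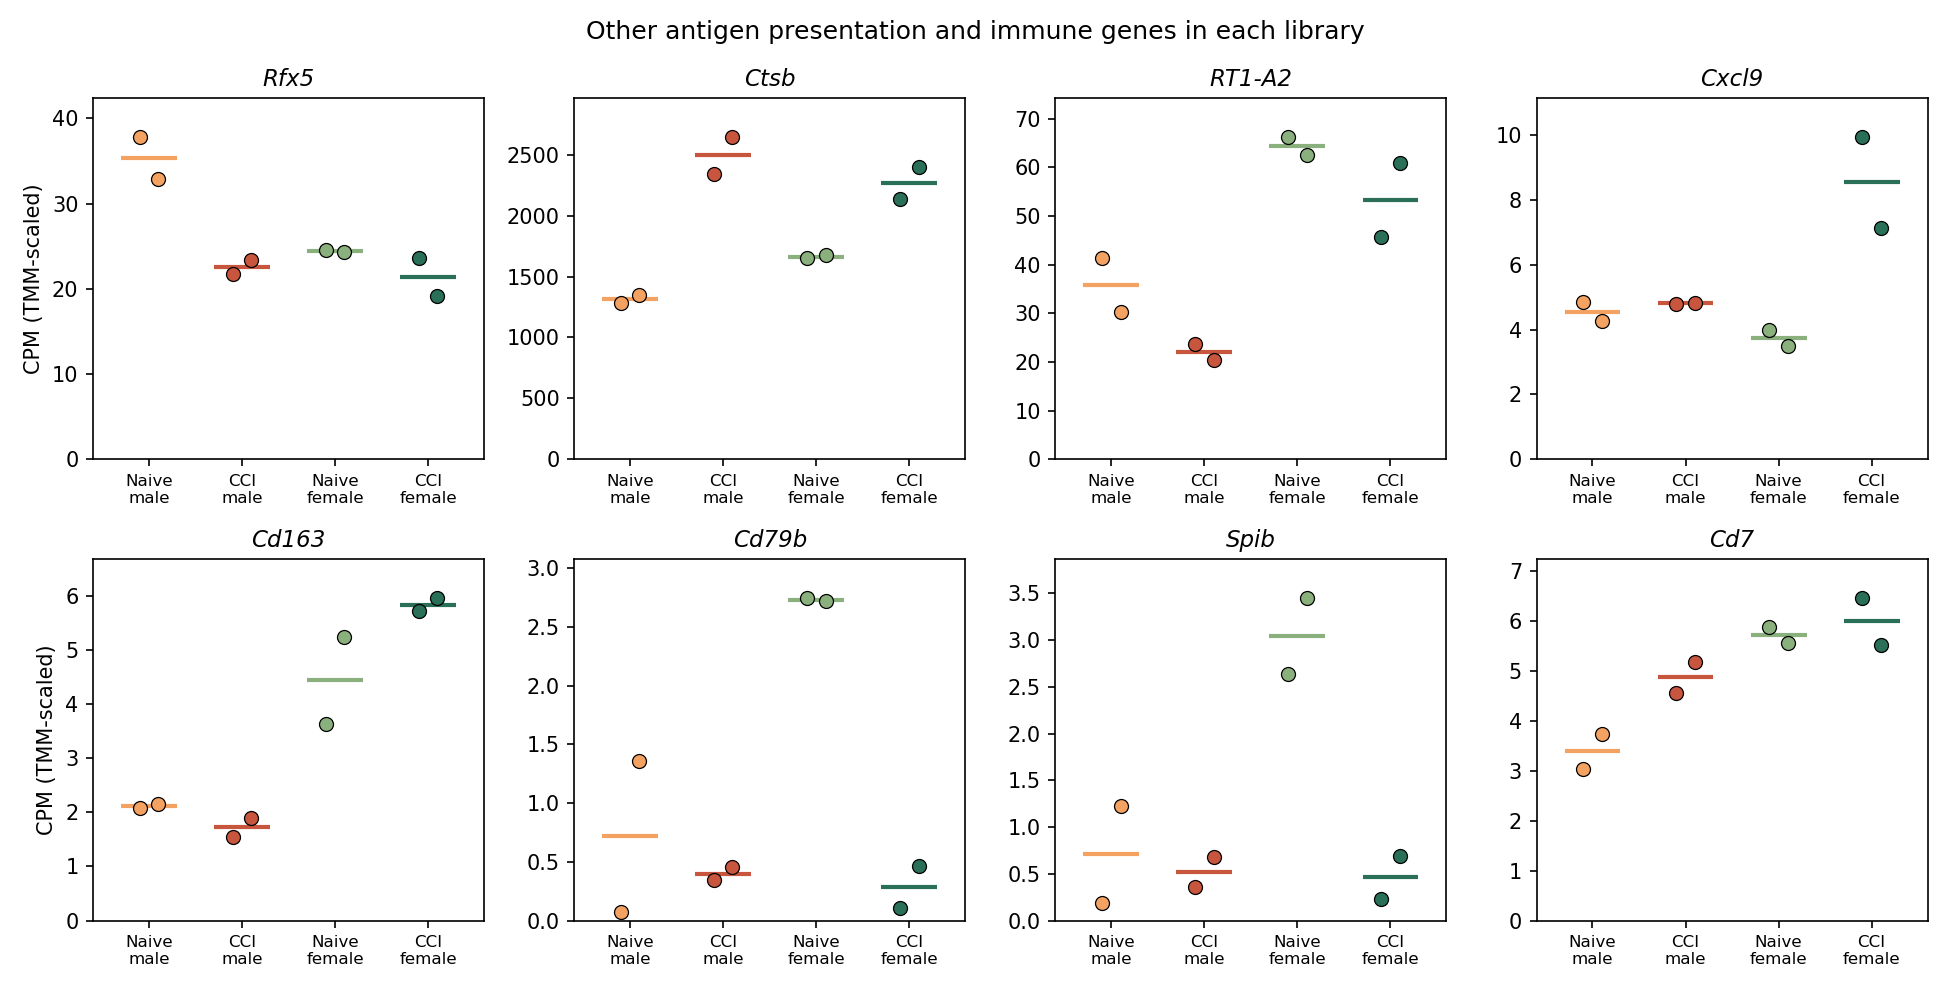
Each panel plots 1 gene of antigen presentation or immune cells in CPM (vertical axis) by group (horizontal axis), with a point for each library and a bar for the mean of 2 rats. RT1-A2 and Cd163 are higher in the 4 female libraries, Rfx5 is highest in naïve males (37.9 and 32.9 CPM), and Cxcl9 is highest in CCI females (9.95 and 7.14 CPM).

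Markers of the cells that carry class II were measured beside these values. Of 18 macrophage markers only Cd163 (ENSRNOG00000010253) had an identifier. Males had 2.08 and 2.15 CPM of Cd163 without injury and 1.54 and 1.90 CPM with it. Females had 3.64 and 5.25 CPM without and 5.71 and 5.96 CPM with injury. All female libraries lay above all male ones, and the share of all genes that separate in this way was not counted. Cd163 was higher in CCI females than CCI males with a log2FC of 1.77 (edgeR adjusted p = 0.02). Over both conditions it was higher in females with 1.41 (0.0284), and its log2FC between the naïve sexes was 1.07 (0.105). The call between the CCI groups was lost without either CCI female. Over both conditions the Cd163 call was lost on leaving out any 1 library other than the first naïve male or the first naïve female, with a maximum adjusted p of 0.132 by edgeR. Per count of Cd163, RT1-Da had 22.2 and 24.2 counts in uninjured males and 44.5 and 41.7 in injured ones. Uninjured females had 22.8 and 15, and injured females 24.0 and 15.2. Cd163 had 90 to 233 counts per library, a counting error of 6.55% to 10.5%, and was lowest in CCI males. The ratio of RT1-Da to Cd163 in CCI males was above that of all other libraries. Naïve females, CCI females and naïve males overlapped in it. Cd163 marks only some macrophages, and its part in the class II differences was not tested.

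Of 8 B cell markers 2 had an identifier, and their summed level in males was 0.268 and 2.59 CPM without injury and 0.702 and 1.13 CPM with it. In females it was 5.39 and 6.17 CPM without and 0.336 and 1.15 CPM with injury. Cd79b, part of the B cell receptor, fell by 3.27 and Spib, a B cell transcription factor, by 2.72 on the log2 scale in CCI females (edgeR adjusted p = 0.0097 and 0.0119), against 2% of all genes called lower, while RT1-Da and Cd74 lay higher there. Both calls were lost in the fit over all 8 libraries (edgeR adjusted p = 0.0912 and 0.0732) and without the first CCI female. The call of Spib was also lost under another alternative. Of 8 red cell markers 7 had an identifier. These markers summed to 1351 and 2029 CPM in naïve females against 168 and 212 CPM in CCI females. In the 2 naïve males they summed to 130 and 1388 CPM, and the source of their transcripts was not tested. The second naïve male had more of both marker sets than the first. It also had more RT1-Da (51.9 against 46.3 CPM) and more Cd74 (160.0 against 133 CPM). In females the second rat of each group also had more of both sets but less RT1-Da. RT1-Da was 78.9 against 83.0 CPM in naïve and 90.3 against 137 CPM in CCI females. Cd74 was lower in the second CCI female (233 against 340.0 CPM), while the naïve females (227.7 against 228.1 CPM) differed by less than counting error. Each of these is a pair of single rats, and no relation of class II to these markers was tested. In CCI males the second rat had more of the B cell but less of the red cell markers. Without the second naïve male the log2FC between the naïve sexes was 0.81 for RT1-Da and 0.78 for Cd74. Of the dendritic cell, T cell and endothelial markers, 8 each, none had an identifier. In CCI females 7 of 7 red cell and 2 of 2 neutrophil markers with an identifier were called lower, as were 2% of all genes. All of them, and Cd79b and Spib, are in the study's own list of genes most lowered by CCI in females. Their symbols came from such lists, so these counts were largely set in advance and the 2% is no fair background. In CCI males 7 of 7 Schwann cell and myelin markers were called lower and 5 of 6 sensory neuron markers higher. The 1 satellite glia marker, Fabp7, was called lower. Of all genes 12.5% were called lower there and 9.05% higher. In CCI females 2 of the 7 Schwann cell and myelin markers and Fabp7 were also called lower, and 0 of the 6 sensory neuron markers higher. These markers too have identifiers largely through the study's own lists, so the shares of all genes are no independent background for their counts. The part of these cells in the class II values was not tested.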

How the data were processed

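RNA of 8 rat DRG libraries was measured by poly(A), strand-specific RNA-seq. The authors aligned the reads to rn6 with HISAT2 (CASAVA 1.8.2 is also named in the submitters' processing notes), removed ribosomal reads and deposited raw counts per Ensembl gene made with featureCounts, with no normalization. Depth and counting error stand in the report, and reads without molecular identifiers make counting errors lower limits.

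The counts were analysed in edgeR 4.0.16 (with limma 3.58.1, under R 4.3.3) and, as an alternative, in DESeq2 1.42.0. Of 32623 genes 23944 had any count, and filterByExpr (minimum count 10, minimum total 15) kept 16988. TMM scaling was used, and log2 CPM had a prior count of 2. Each pairwise comparison was fitted with edgeR's quasi-likelihood test on its own 4 libraries, and the interaction and the sex term adjusted for CCI on all 8. P-values were Benjamini-Hochberg adjusted over all genes tested. Calls required adjusted p below 0.05 and log2FC beyond 0.5 in either direction, the interaction only the former. SEs were derived from the F statistics. Fits were tested on simulated data.

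Other settings tried were DESeq2 itself, its size factors within edgeR, pairwise contrasts from the 8-library fit, no filter, a minimum of 10 counts everywhere, replicate number as a block, and omission of single libraries. A lone library left in a group by omission is assumed to vary like the other groups. The values of r without the first CCI female were added after seeing the data.

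Symbols came from the paper's tables and supplements. Named are RT1-Da and Cd74, the members with an identifier of the class II, transcription and processing lists, of each other list the called members and the 3 with the most CPM, and the 10 genes most alike. Marker lists are given by counts and sums beyond the genes that bear on class II cells, and unnamed identifiers among the 10 by number. Genes, lists and motifs were chosen with earlier results of these data known.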

Additional observations from a re-analysis of the deposited data

How the results depend on the processing

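Over the 6 comparisons and the alternatives, RT1-Da and Cd74 gave 110 values with direction and call as reported, 14 that newly passed, 3 that no longer passed and 5 of opposite sign. With DESeq2 size factors the median log2FC of all genes moved most for the interaction, by -0.00988. The cause of these changes was not tested. Between naïve sexes, where 12 genes were called, DESeq2 called 1014, the fit over all 8 libraries 906, the fit with no filter 130, a minimum of 10 counts in every library 1 and the replicate block 6. RT1-Da was then called by DESeq2 (log2FC 0.73), over all 8 libraries (0.72) and with no filter (0.73), and Cd74 by DESeq2 (0.64). Between CCI sexes, with 180 calls, DESeq2 gave 389, no filter 284 and the block 68. The interaction had 270 calls, against 1594 by DESeq2, 1032 with no filter and 532 with at least 10 counts. Sex over both conditions had 74, against 462 by DESeq2, 232 with no filter and 41 with the block. There RT1-Da passed by DESeq2 (0.67) and with no filter (0.66), and Cd74 by DESeq2 (0.66), with no filter (0.65) and at the higher minimum (0.65).

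With single libraries left out, calls ranged from 6 to 327 between naïve sexes, 32 to 656 between CCI sexes, 0 to 3722 for CCI in males (3663 with all libraries), 84 to 1836 for CCI in females (967), 0 to 563 for the interaction and 20 to 72 for sex over both conditions. The 0 in males arose without the first CCI male. The log2FC of RT1-Da ranged from 0.64 to 0.81 between naïve sexes, 0.30 to 0.90 between CCI sexes, 0.48 to 0.70 for CCI in males, 0.16 to 0.76 for CCI in females, -0.43 to 0.17 for the interaction and 0.55 to 0.79 for sex over both conditions. The same ranges for Cd74 were 0.51 to 0.78, 0.38 to 0.92, 0.17 to 0.43, 0.03 to 0.58, -0.26 to 0.28 and 0.53 to 0.75. RT1-Db1 ranged from -0.18 to 0.19 for the interaction. RT1-Db2, with few counts, ranged from -0.47 to 0.73 between CCI sexes and from -0.86 to 0.30 for CCI in females.

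The labels give no shared animal or day to a replicate number, so the block is a check only. The column names of both male replicate 1 libraries carry a letter that no other column has and that the sources used here do not explain. Whether it marks a batch was not tested. Differences between replicates 1 and 2 correlated across genes with r = 0.781 between the 2 male groups and with r between -0.0524 and 0.135 for the other pairs of groups. With the block, RT1-Da kept its call for CCI in males (log2FC 0.59, adjusted p 2.13e-05 by edgeR), and calls numbered 4478 there and 1180 in females. The call of RT1-A2 between CCI sexes was lost (adjusted p 0.0824 by edgeR), as was that of Cd163 (0.0646).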
